A study of Homo sapiens with 4 samples.

Results

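The genes examined are 10 human genes that make, break down or regulate the polyamines: ODC1, AMD1, SRM and SMS (synthesis), OAZ1, OAZ2 and AZIN1 (the antizyme system), and SAT1, PAOX and SMOX (catabolism). They were chosen by name, and all 10 were found among the 57820 genes of the deposited table of TPM, transcript abundances corrected for length and scaled to the same sum in each library. The libraries came from 786-0 cells, an established line of human renal carcinoma, deprived of amino acids for 12 h before RNA was taken. The groups were 2 libraries from cells carrying a short hairpin RNA against GLUD1 (shGLUD1), which encodes mitochondrial glutamate dehydrogenase, and 2 from cells carrying a non-targeting hairpin (shNT). Maintenance was in DMEM with 10% FBS, and every library shares the starvation, without fed cells beside it. Whether replicates were separate cultures, whether cells were pools or clones, and how many hairpins targeted GLUD1 is not in the labels, so each p-value covers the spread among 4 libraries that could differ for technical reasons alone.

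Polyamines are small positively charged molecules that bind RNA and DNA and are needed for growth. Ornithine decarboxylase makes putrescine from ornithine, and aminopropyl groups taken from decarboxylated S-adenosylmethionine then turn putrescine into spermidine and spermidine into spermine. Antizymes, whose translation requires a ribosomal frameshift that polyamines promote, bind ornithine decarboxylase and deliver it to the proteasome, so an antizyme mRNA level does not report the amount of antizyme protein. In mouse kidney, ornithine decarboxylase is known as a gene strongly induced by androgens.

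In the libraries labelled shGLUD1, transcripts for the aminopropyl donor step (AMD1) and for spermine synthase (SMS) rose most, to 2.91 and 2.63 times their shNT means in TPM. AZIN1 rose to 2.27 times and OAZ2 to 1.68 times the shNT mean, but once the libraries were rescaled to a common median gene OAZ2 had a log2 fold change of -0.01 and AZIN1 of 0.37, and neither passed. Under quantile normalization OAZ2 was called higher (0.46, limma adjusted p = 0.0115) and AZIN1 did not pass (0.43). ODC1 rose by much less, to 1.33 times, and was lower after the rescaling to the median gene. SAT1, the acetyltransferase that opens catabolism, fell to 0.8 times the shNT mean. With trends in transcript length and GC content removed, the log2 fold change of SAT1 was -0.03 and did not pass. That setting keeps each library's mean, and it called 7378 of 12258 genes higher in shGLUD1 and 747 lower. AMD1 and SMS were the genes among the 9 tested that kept a higher call in all 14 other settings of the analysis, including those that rescaled the libraries.

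These directions have to be read against a shift of the whole table. Among the 12524 genes that averaged 1 TPM or more, limma on log2(TPM + 1) called 56.7% higher and 7.77% lower in shGLUD1, 64.5% in all (Benjamini-Hochberg adjusted p under 0.05), and the median gene was itself 0.63 log2 units higher. Among the 10 polyamine genes, 9 were tested, of which 6 were higher, 1 was lower and 2 did not pass; their median log2 fold change was 0.40. The counts are near the background shares, and 4 of the 9 lay above the median gene. After median-ratio rescaling, which sets the median gene to no change, limma called 23.2% of all genes higher and 27.9% lower, 51.1% in all. On that scale 2 polyamine genes (AMD1 and SMS) were higher, 5 (ODC1, SRM, OAZ1, SAT1 and SMOX) were lower and 2 did not pass, with a median log2 fold change of -0.36. On TPM as deposited the groups did not overlap in 7 of the 10 genes with shGLUD1 higher and in 2 with shGLUD1 lower, against 69.9% and 13.5% of all genes tested and 83.4% in either direction. In bulk RNA, fewer cells that express a gene and less of its RNA per cell cannot be told apart.

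The targeted gene and the identity of the cells were read from the same table. GLUD1 had 13.5 and 19.8 TPM under the shGLUD1 label, against 18.1 and 17.4 TPM in shNT, and shGLUD1 replicate 2 exceeded both shNT libraries (log2 fold change -0.11, SE 0.19, limma adjusted p = 0.631; rescaled -0.83, adjusted p = 0.00233). In what follows shGLUD1 therefore means the libraries so labelled, and all directions depend on the label. Of the 8 renal carcinoma markers, VIM, CA9, KRT8, EPAS1, PAX8 and CDH2 were above 2 TPM in all 4 libraries, while PAX2 reached at most 0.12 TPM and KRT18 lay between 0.66 and 1.87 TPM. These markers moved with the groups: VIM, CDH2, CA9 and EPAS1 were at 3.65, 3.08, 2.97 and 2.66 times their shNT means and were also called higher after rescaling, while PAX8 and KRT18 were called lower after rescaling (-1.05 and -1.03). The list summed to 3065 and 3937 TPM in shGLUD1, against 1016 and 983.5 TPM in shNT. Most of these sums was VIM, at 2902 and 3756 TPM in shGLUD1, against 930.9 and 890.8 TPM in shNT. The part of the list in the results below was not tested. Markers of other cells summed over their lists to at most 1.24 TPM for leukocytes, 0.64 TPM for hepatocytes and 0.37 TPM for endothelium. Those of fibroblasts summed to 15.1 and 13.6 TPM in shGLUD1, against 8.44 and 10.8 TPM in shNT, and their part in the results below was not tested. Read totals cannot be had from TPM, and depth is unknown.

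**Figure D1:**
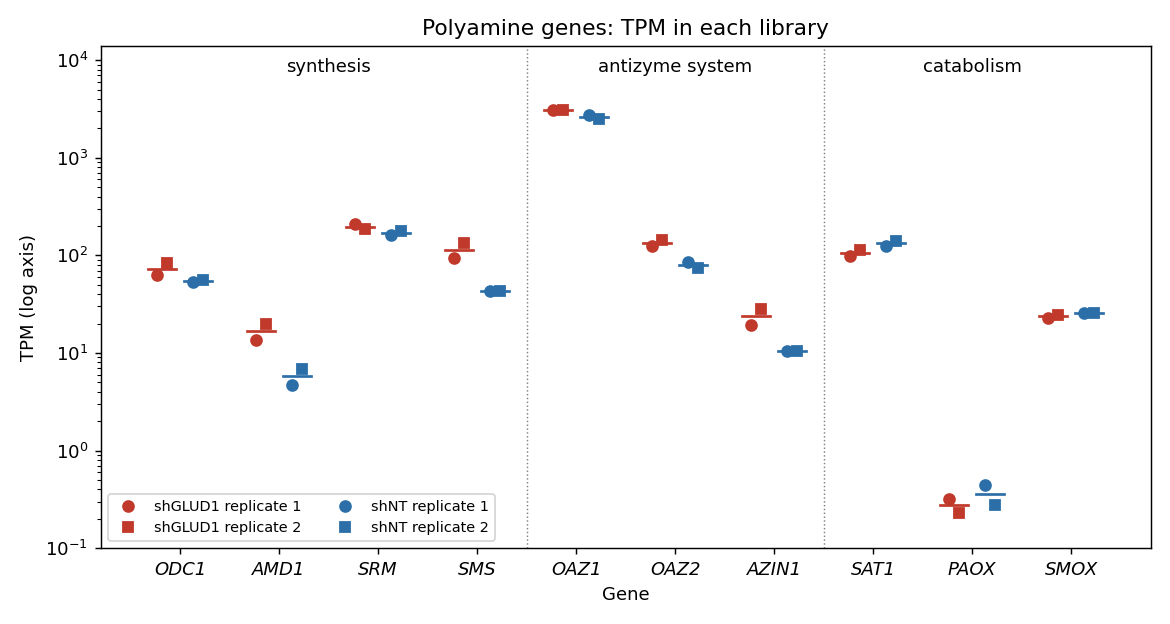
TPM (log axis) of the 10 polyamine genes in each library, grouped by role; circles are replicate 1, squares replicate 2, and short lines are group means of 2 libraries, with shGLUD1 in red left of shNT in blue. OAZ1 lies above 2500 TPM in every library and PAOX below 0.5 TPM, and the groups separate most for AMD1, SMS and AZIN1.

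TPM are scaled by transcript length, so levels can be set side by side between genes. OAZ1 was by far the most abundant polyamine transcript and held 82.5% and 80.7% of the summed TPM of the 10 genes in the shGLUD1 libraries, against 84.4% and 82.4% in the shNT libraries. SRM came second and AMD1 and PAOX came last in all 4 libraries. In shNT the order below SRM was SAT1, OAZ2, ODC1, SMS, SMOX and AZIN1 in both libraries, and no neighbours in that order overlapped. In shGLUD1, OAZ2 lay above SAT1 and SMS above ODC1 in both libraries, the reverse of shNT. Across the 2 shGLUD1 libraries the levels of SMS overlapped those of OAZ2 and SAT1. Those of SMOX overlapped those of AZIN1, and those of AZIN1 overlapped those of AMD1. Within each shGLUD1 library, however, OAZ2 lay above SMS and AZIN1 above AMD1. SAT1 lay above SMS and SMOX above AZIN1 in shGLUD1 replicate 1, and both orders were reversed in replicate 2. Summed by role, the 4 synthesis genes came to 380.5 and 421.9 TPM in shGLUD1, against 261.8 and 284.5 TPM in shNT. The 3 catabolic genes came to 122.4 and 139.8 TPM in shGLUD1, against 151.5 and 167.6 TPM in shNT. Neither pair of sums overlapped, with synthesis higher and catabolism lower in shGLUD1 on TPM as deposited. After rescaling both were lower, with synthesis at 311.9 and 299.3 rescaled TPM in shGLUD1, against 339.8 and 366.9 in shNT, and catabolism at 100.3 and 99.2 in shGLUD1, against 196.6 and 216.1 in shNT. SAT1 made up most of the catabolic sum in all 4 libraries. SRM, which did not pass on TPM, was the largest part of the synthesis sum. With length and GC trends removed the log2 fold changes of SAT1 and SMOX were -0.03 and 0.10, and sums were not computed.

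AMD1 encodes S-adenosylmethionine decarboxylase, which makes the aminopropyl donor used for both spermidine and spermine. Its transcript (ENSG00000123505, GRCh38 chromosome 6, 110874770 to 110895713, plus strand) stood at 13.8 and 19.9 TPM in shGLUD1, against 4.67 and 6.9 TPM in shNT. Both shGLUD1 libraries lay well above the higher shNT library. By limma it differed by 1.39 on the log2 scale (SE 0.24, adjusted p = 0.000502), more than 87.8% of all genes tested, and by 0.71 after rescaling (SE 0.20, adjusted p = 0.0187). Across the 14 other settings it ranged from 0.66 to 1.65, always past the threshold.

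SMS encodes spermine synthase, which adds the last aminopropyl group. SMS (ENSG00000102172, GRCh38 chromosome X, 21940573 to 21994835, plus strand) stood at 93.3 and 133.7 TPM in shGLUD1, against 43.1 and 43.2 TPM in shNT. The shNT libraries were nearly equal, the shGLUD1 libraries were further apart, and the groups did not overlap. In limma the log2 fold change was 1.35 (SE 0.16, adjusted p = 5.02e-05), with 0.60 after rescaling (SE 0.13, adjusted p = 0.00575). SRM encodes spermidine synthase, the enzyme of the step before. SRM (ENSG00000116649, GRCh38 chromosome 1, 11054584 to 11060024, minus strand) stood at 210.1 and 185.1 TPM in shGLUD1, against 160.4 and 178.2 TPM in shNT. The groups did not overlap, but the gap between them was smaller than the spread within either group, and the difference did not pass (log2 fold change 0.22, SE 0.11, limma adjusted p = 0.0902). SRM turned to -0.54 after rescaling (adjusted p = 0.016). It was 0.69 with trends in transcript length and GC content removed (adjusted p = 0.000145), in a setting that keeps the shift of the whole table.

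ODC1 encodes ornithine decarboxylase, the enzyme of the first committed step. ODC1 (ENSG00000115758, GRCh38 chromosome 2, 10439968 to 10448504, minus strand) stood at 63.3 and 83.1 TPM in shGLUD1, against 53.7 and 56.2 TPM in shNT. Both shGLUD1 values lay above both shNT values, replicate 2 by more than replicate 1. Its log2 fold change by limma, 0.40 (SE 0.14, adjusted p = 0.0283), was below the median gene and above that of 38% of genes. It turned to -0.36 after rescaling (SE 0.12, adjusted p = 0.0337). The call was lost without shGLUD1 replicate 2 (0.20, adjusted p = 0.159), shNT replicate 1 (0.36, adjusted p = 0.104) or shNT replicate 2 (0.43, adjusted p = 0.0549).

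ODC1 is a textbook target of MYC, whose complex with MAX binds the E-box CACGTG, and polyamine promoters were therefore searched for that motif. RefSeq promoter windows (GRCh38.p14, mostly upstream of an annotated start site) were found for 7 of the 10 genes, as 10 windows. Some windows of AMD1 almost coincide. CACGTG reads the same on both strands. It was present in 2 of the 10 windows, from SRM and ODC1, against 7.26% of all 35116 windows of that length. The stretches that hold it are shown as the regulatory sequence these windows offer for the first enzyme and spermidine synthase; each has 60 bases, 5′ to 3′ on the minus strand, with the E-box in capitals.
SRM, chr1:11060189-11060248, upstream of the gene: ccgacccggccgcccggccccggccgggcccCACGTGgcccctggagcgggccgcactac
ODC1, chr2:10448013-10448072, in an intron: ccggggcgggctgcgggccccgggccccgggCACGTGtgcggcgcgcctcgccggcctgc
The ODC1 stretch ends at the base before a second RefSeq start site and is intronic in GENCODE 29. A second CACGTG begins at base 6 of the sequence that starts at that site. A second motif, TGATGNAA, a core of the amino acid response element that ATF4 binds, was searched on both strands and was in none of the 10 windows, against 3.62% of all windows. A motif match or its absence in these windows is a description and shows no binding.

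**Figure D2:**
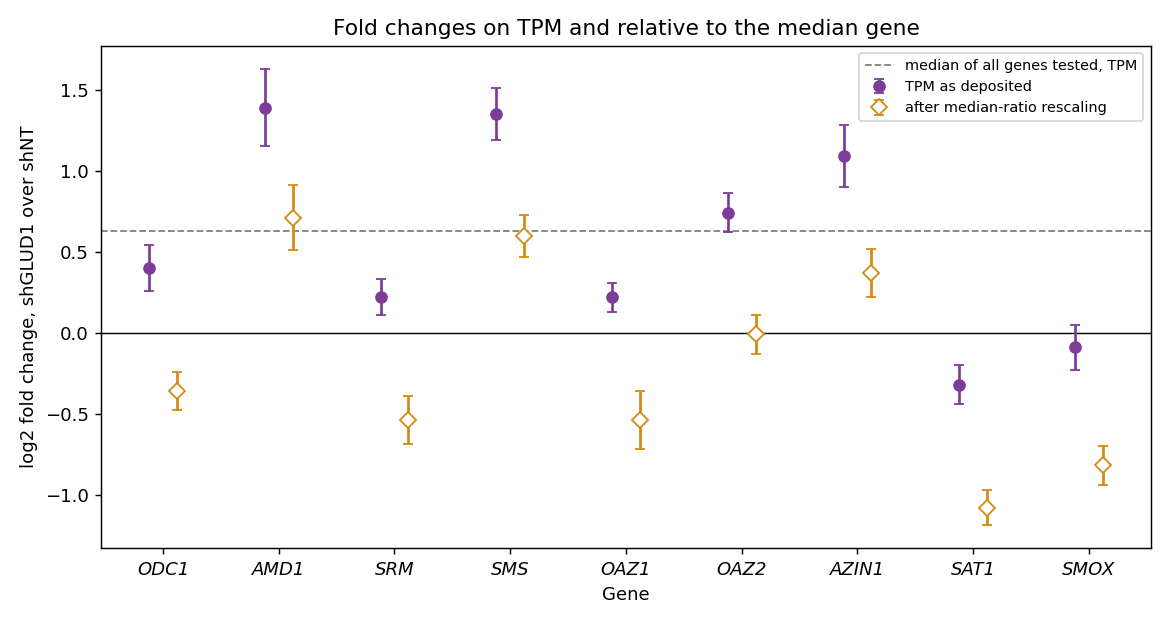
Log2 fold change of shGLUD1 over shNT for the 9 polyamine genes tested, on TPM as deposited (filled circles) and after median-ratio rescaling (open diamonds); bars are limma standard errors, and the dashed line is the median of all 12524 genes on TPM, 0.63. AMD1, SMS and AZIN1 lie above 0 on both scales, SAT1 and SMOX below 0 on both, and ODC1, SRM, OAZ1 and OAZ2 change sign, OAZ2 to -0.01.

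The antizyme system holds the proteins that set how long ornithine decarboxylase lasts. OAZ1 and OAZ2 encode antizymes, which also restrain polyamine uptake. Their shared frameshift site is shown because it is where polyamines act on these mRNAs, and it carries a stop codon that the ribosome must pass; each has 36 bases of GENCODE 29 transcript sequence, 5′ to 3′, with the stop codon in capitals.
OAZ1, chr19:2271425-2271460, plus strand: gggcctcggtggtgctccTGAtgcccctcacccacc
OAZ2, chr15:64691498-64691533, minus strand: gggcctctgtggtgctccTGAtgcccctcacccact
Of the 36 bases, 34 were equal, and the differences were G8T and C36T, with the OAZ1 base first and positions counted from 1 at the 5′ end. Both sites are exonic, and the annotated coding sequence skips the T of the stop codon, at position 2271443 of chromosome 19 and 64691515 of chromosome 15.

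OAZ1 (ENSG00000104904, GRCh38 chromosome 19, 2269509 to 2273490) stood at 3055 and 3059 TPM in shGLUD1, against 2758 and 2505 TPM in shNT. The groups did not overlap, and the shNT libraries were further apart than the shGLUD1 libraries. After median-ratio rescaling its log2 fold change was -0.54 (limma adjusted p = 0.033), whereas under quantile normalization it was 0.44 and called higher (adjusted p = 0.00493). On TPM as deposited the log2 fold change of 0.22 only just passed (SE 0.09, limma adjusted p = 0.0449). The call was lost when any single library was left out (0.15 to 0.29, adjusted p between 0.0937 and 0.405) and with the replicate number as a block (0.22, adjusted p = 0.0788). OAZ2 (ENSG00000180304, GRCh38 chromosome 15, 64687573 to 64703281) stood at 125 and 143 TPM in shGLUD1, against 85.1 and 74.1 TPM in shNT, with no overlap. Limma put it 0.74 log2 units higher (SE 0.12, adjusted p = 0.000347), close to that of the median gene. It was -0.01 after rescaling (adjusted p = 0.943) and 0.46 under quantile normalization (adjusted p = 0.0115).

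AZIN1 encodes antizyme inhibitor, a relative of ornithine decarboxylase that has no enzyme activity and binds antizyme in its place. AZIN1 (ENSG00000155096, chromosome 8) stood at 19.4 and 28.1 TPM in shGLUD1, against 10.4 and 10.5 TPM in shNT. The shNT libraries were nearly equal and both shGLUD1 libraries were higher. With limma it was 1.09 log2 units higher (SE 0.19, adjusted p = 0.00068). After rescaling it was 0.37 and did not pass (SE 0.15, adjusted p = 0.0676). A non-coding gene annotated antisense to AZIN1 was listed at 9.71 and 7.92 TPM in shGLUD1 and at 8.71 and 9.56 TPM in shNT; the labels do not say that reads were counted by strand, so the split between them is uncertain.

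Catabolism runs through acetylation and oxidation. SAT1 encodes spermidine/spermine acetyltransferase, whose products are exported or oxidised. SAT1 (ENSG00000130066, GRCh38 chromosome X, 23783173 to 23786226, plus strand) stood at 99 and 114.7 TPM in shGLUD1, against 125.4 and 141.8 TPM in shNT, with no overlap. Limma gave a log2 fold change of -0.32 (SE 0.12, adjusted p = 0.0312), with 10.1% of genes below it. After rescaling SAT1 fell further, with a log2 fold change of -1.08 (SE 0.11, adjusted p = 0.000241), at 81.1 and 81.4 rescaled TPM in shGLUD1, against 162.7 and 182.8 rescaled TPM in shNT. The sign was negative in all 14 other settings, of which 9 passed. With trends in transcript length and GC content removed it was -0.03 (adjusted p = 0.853), in a setting that keeps the shift of the whole table. The call was also lost without shGLUD1 replicate 1 (-0.21, adjusted p = 0.15) or shNT replicate 2 (-0.23, adjusted p = 0.263).

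SMOX encodes spermine oxidase, which turns spermine directly back into spermidine. SMOX (ENSG00000088826, GRCh38 chromosome 20, 4120980 to 4187747, plus strand) stood at 23.1 and 24.8 TPM in shGLUD1, against 25.6 and 25.5 TPM in shNT. The groups lay close together without overlap, and the difference did not pass (log2 fold change -0.09, SE 0.14, limma adjusted p = 0.584). It was -0.82 after rescaling (SE 0.12, adjusted p = 0.00094). PAOX encodes the peroxisomal oxidase of acetylated polyamines. PAOX (ENSG00000148832, GRCh38 chromosome 10, 133379234 to 133391694, plus strand) was listed at 0.32 and 0.23 TPM in shGLUD1, against 0.44 and 0.28 TPM in shNT. The groups overlapped, its mean was under 1 TPM, and it was not tested. Without a filter on low values its log2 fold change was -0.09 (limma adjusted p = 0.571).

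**Figure D3:**
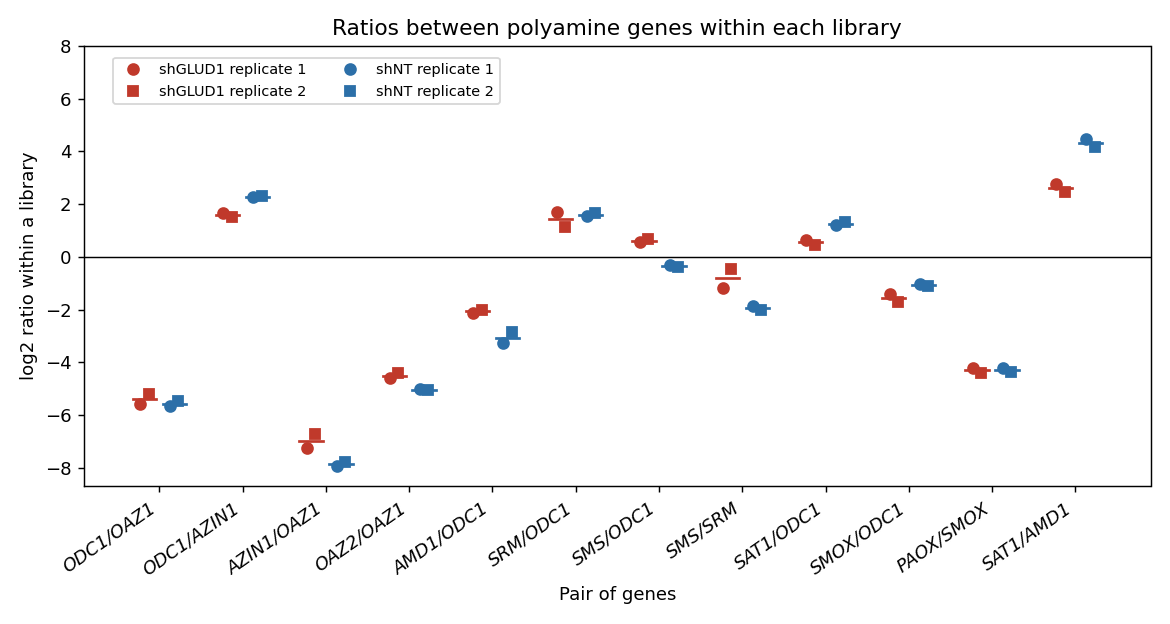
Log2 ratio of 12 pairs of polyamine genes within each library (TPM + 1 of the first gene over that of the second), with shGLUD1 in red left of shNT in blue and lines for the means of 2 libraries. The groups separate in 9 pairs, most widely for SAT1/AMD1, and overlap for ODC1/OAZ1, SRM/ODC1 and PAOX/SMOX. The share of all gene pairs that separate was not computed. With length and GC trends removed (not plotted) ODC1/OAZ1 turns to -0.27 and SRM/ODC1 to 0.39.

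Ratios between genes of the same library do not depend on how libraries are scaled to each other, apart from the pseudocount, and 12 were computed. They do pair transcripts of different length, so values with length and GC trends removed, a setting chosen after the data were seen, are given where they differ by more than 1.5 times or in sign. SMS/ODC1, as a log2 ratio of TPM + 1, was 0.55 and 0.68 in shGLUD1, against -0.31 and -0.37 in shNT, so SMS exceeded ODC1 in shGLUD1 and ODC1 exceeded SMS in shNT. The difference of 0.96 was larger than the SD between replicates, 0.09 in shGLUD1 and 0.04 in shNT. AMD1/ODC1 differed by 1.0 (-2.07 ± 0.08 in shGLUD1 and -3.06 ± 0.29 in shNT; SD, 2 libraries each), and SMS/SRM by 1.13 (-0.81 ± 0.49 in shGLUD1 and -1.94 ± 0.11 in shNT), or by 0.68 with length and GC trends removed. Within synthesis, then, the decarboxylase for the aminopropyl donor and spermine synthase were higher relative to ornithine decarboxylase in both libraries labelled shGLUD1. SRM/ODC1 overlapped between groups, with a difference of -0.17 against an SD of 0.40 in shGLUD1, and turned to 0.39 without overlap once length and GC trends were removed.

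SAT1/AMD1, which sets the acetyltransferase of catabolism against a decarboxylase of synthesis, was 2.76 and 2.47 in shGLUD1, against 4.48 and 4.18 in shNT, a difference of -1.71 on the log2 scale. In plain TPM, SAT1 was 7.2 and 5.75 times AMD1 in the shGLUD1 libraries, against 26.9 and 20.5 times in the shNT libraries. SAT1/ODC1 differed by -0.72 (0.55 ± 0.12 in shGLUD1 and 1.26 ± 0.08 in shNT), and SMOX/ODC1 by -0.49 (-1.56 ± 0.20 in shGLUD1 and -1.07 ± 0.05 in shNT). The groups did not overlap for any of these. With length and GC trends removed SAT1/ODC1 differed by -0.33 and SMOX/ODC1 by -0.21, still without overlap.

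Of the ratios within the antizyme system, AZIN1/OAZ1 differed by 0.87 (-6.97 ± 0.36 in shGLUD1 and -7.84 ± 0.10 in shNT) and OAZ2/OAZ1 by 0.53 (-4.50 ± 0.13 in shGLUD1 and -5.03 ± 0.04 in shNT), without overlap. With length and GC trends removed these differences were 0.21 and 0.27, also without overlap. ODC1/AZIN1 was 1.66 and 1.53 in shGLUD1, against 2.26 and 2.32 in shNT. ODC1/OAZ1 overlapped (-5.38 ± 0.27 in shGLUD1 and -5.56 ± 0.14 in shNT), so the ratio of the enzyme's mRNA to that of its main antizyme did not differ beyond the spread, and its difference of 0.18 turned to -0.27, without overlap, with length and GC trends removed. In all, 5 ratios were higher and 4 lower in shGLUD1 without overlap, and 3 overlapped. An exact two-sided permutation test of 2 libraries against 2 gave p = 0.333 for each of the 9, the smallest p it allows, and 0.444 adjusted over the 12. The ratios share genes, and the share of all gene pairs that separate in this way was not computed. Among single genes tested, 83.4% did not overlap between the groups on TPM.

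**Figure D4:**
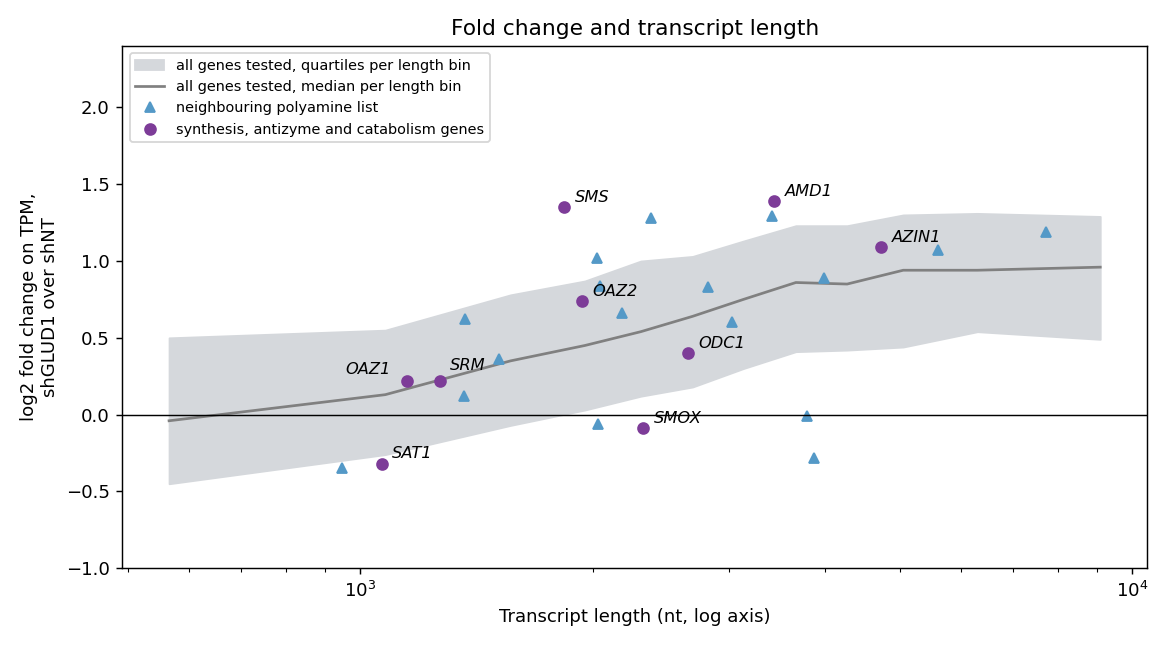
Log2 fold change on TPM (shGLUD1 over shNT) against transcript length (log axis) for the polyamine genes tested (purple circles), a list of neighbouring polyamine genes (blue triangles) and all genes in 12 length bins (grey line for medians, band for quartiles). AMD1 and SMS lie above the quartile band of genes of their length and SMOX and SAT1 below it.

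Fold changes moved with transcript length across the table. Over 12258 genes with an assigned length, Spearman's rho of length and log2 fold change was 0.39, and it was 0.628 over the 9 polyamine genes, where all points share the same 4 libraries. Genes in the shortest of 12 length bins had a median log2 fold change of -0.04 and those in the longest 0.96. AMD1 and AZIN1 have the longest assigned transcripts among the 9 (3438 and 4721 nt), and SAT1 and OAZ1 the shortest (1065 and 1148 nt). SMS, at 1837 nt, had 1.35, whereas the bin of median length 1953 nt had a median of 0.45 and an upper quartile of 0.87. With trends in length and GC content removed, limma called 7378 of these 12258 genes higher and 747 lower, so the shift of the whole table stayed. The log2 fold changes of AMD1, SMS, AZIN1 and OAZ2 were then 1.24, 1.36, 0.78 and 0.84 (limma adjusted p = 0.000212, 1.47e-05, 0.00172 and 9.83e-05), with OAZ1 at 0.57 (0.000116). ODC1 was then at 0.30 and did not pass (0.0776), as did not SMOX (0.10, 0.59).

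**Figure D5:**
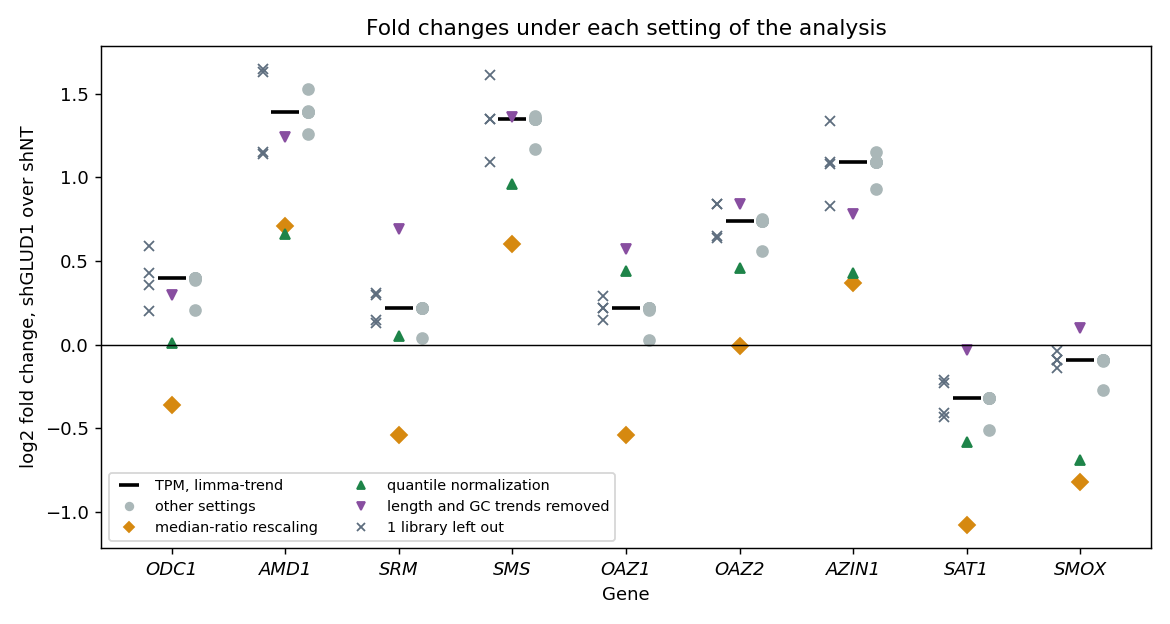
Log2 fold change (shGLUD1 over shNT) of the 9 polyamine genes tested under each setting: the black bar is TPM with limma-trend, coloured symbols are rescaling, quantile normalization and removal of length and GC trends, crosses leave out 1 library each, and grey circles are the other settings. AMD1, SMS and AZIN1 stay above 0 throughout and SAT1 below 0, whereas ODC1, SRM, OAZ1, OAZ2 and SMOX have settings on both sides.

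A list of 27 further genes around the pathway was read in the same fit. Of these 17 were tested, 12 rose, 1 fell and 4 did not pass (background 56.7% and 7.77%), with a median log2 fold change of 0.66 against 0.63 for all genes. After rescaling 3 were higher and 6 lower (background 23.2% and 27.9%), with a median of 0.01. The largest rises were in MAT2B, the regulatory subunit of S-adenosylmethionine synthetase, SLC18B1, a vesicular polyamine transporter, and ATP13A3, a P-type ATPase of polyamine uptake. MAT2B stood at 15.3 and 20.8 TPM in shGLUD1, against 6.12 and 7.31 TPM in shNT (1.29, SE 0.20, limma adjusted p = 0.000327; rescaled 0.59). SLC18B1 stood at 3.66 and 5 TPM in shGLUD1, against 1.12 and 1.25 TPM in shNT (1.28, adjusted p = 0.00125; rescaled 0.75). ATP13A3 stood at 7.54 and 11.2 TPM in shGLUD1, against 3.18 and 3.77 TPM in shNT (1.19, adjusted p = 0.00146; rescaled 0.55), and did not pass under quantile normalization (0.42, adjusted p = 0.0945). These 3 were also the genes of the list called higher after rescaling.

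The gene of the list that fell was SAT2, a relative of SAT1 that acts on thialysine and polyamines. SAT2 stood at 207 and 186.7 TPM in shGLUD1, against 247.6 and 254.1 TPM in shNT, without overlap (log2 fold change -0.35, SE 0.10, limma adjusted p = 0.009; rescaled -1.11). With length and GC trends removed, but the shift of the whole table kept, it was 0.10 (adjusted p = 0.385). Among genes of hypusine synthesis, in which spermidine modifies the translation factor eIF5A, EIF5A stood at 1048 and 1129 TPM in shGLUD1, against 883.9 and 812 TPM in shNT (0.36, adjusted p = 0.00487; rescaled -0.40). Of the enzymes that modify it, DHPS had a log2 fold change of 0.12 and DOHH of -0.06, and neither passed (adjusted p = 0.313 and 0.696). In methionine salvage, which recycles the methylthioadenosine that SRM and SMS release, MTAP was listed at 0 TPM in all 4 libraries, while ENOPH1, APIP and MRI1 rose (1.02, 0.62 and 0.60; adjusted p = 0.00218, 0.00419 and 0.0279) with rescaled values of 0.32, -0.10 and -0.05. ADI1, of the same pathway, stood at 46.2 and 46.7 TPM in shGLUD1, against 57.8 and 55.2 TPM in shNT, which did not pass (log2 fold change -0.28, limma adjusted p = 0.0592) but was lower after rescaling (-1.02, adjusted p = 0.000353). The genes named beside MAT2B, SLC18B1, ATP13A3 and SAT2 in these lists were chosen after their values were seen.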

How the data were processed

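Per the labels, total RNA was made into libraries with the TruSeq V2 kit. The authors deposited 1 table of TPM with 57820 genes and 4 columns, each summing to 1000000; columns were matched to libraries by the sample descriptions. The submitters' processing notes list Bowtie 0.12.2, hg38 and mm8 without roles; for the quantifier, annotation, strand setting and filters the sources used here give nothing. These TPM are shares of a library, keep no depth, and allow no counting interval.

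The 12524 genes averaging 1 TPM or more were compared as log2(TPM + 1), a scale that understates changes of low genes, with limma 3.58.1 in R 4.3.3 (variance trend, group as the only term, two-sided, Benjamini-Hochberg over all genes, threshold 0.05; median prior of 8.8 degrees of freedom), after the fit was tested on simulated data. Means are ± SD over 2 libraries. Rescaling divided TPM by median-ratio factors (log2 0.287 and 0.495 for shGLUD1, -0.376 and -0.367 for shNT). Places, gene types, transcript lengths (longest coding transcript) and GC content came from GENCODE 29 on GRCh38; 52338 identifiers matched. Promoter sequences are RefSeq's, on GRCh38.p14. The exact permutation tests went through every split of the libraries, and scipy 1.17.1 gave Spearman's rho and the adjustment over the ratios. Figures used matplotlib 3.10.9, and these steps ran in Python 3.11.15 with numpy 2.4.6 and pandas 2.3.3.

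The members, lists and tests were chosen with earlier results of these data known. The genes named are the members, GLUD1, up to 3 passing genes with the largest rise or fall of the neighbouring list, and the 3 genes most like ODC1 and SAT1; other genes of the neighbouring list, CDKN2A and CDKN2B were named after their values were seen, and markers come from a fixed list. The other settings were a pseudocount of 0.1 TPM, a filter at 5 TPM or none, quantile normalization, median-ratio rescaling, protein-coding genes only, ribosomal protein genes left out (79), length and GC trends removed by loess, no variance trend, a block for the replicate number, and each library left out.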

Additional observations from a re-analysis of the deposited data

How the results depend on the processing

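TPM are shares, so scaling between libraries matters. After median-ratio rescaling 4 of the 9 polyamine genes tested, ODC1 (-0.36), SRM (-0.54), OAZ1 (-0.54) and OAZ2 (-0.01), changed sign, AZIN1 no longer passed (0.37) and SMOX passed as lower (-0.82). Called genes then numbered 2910 higher and 3491 lower, of them 2 and 5 polyamine genes and 3 and 6 of the neighbouring list. Under quantile normalization 2938 were higher and 2764 lower, of them 4 and 2 polyamine genes and 3 and 4 of the neighbouring list. OAZ1 (0.44) and OAZ2 (0.46) were then called higher, unlike after median-ratio rescaling. SMOX was lower (-0.69), and ODC1 (0.01) and AZIN1 (0.43) did not pass. At a mean of at least 5 TPM 4676 genes were higher. With length and GC trends removed ODC1 (0.30) and SAT1 (-0.03) did not pass, SRM did (0.69), SMOX (0.10) and SAT2 (0.10) changed sign, and 0 polyamine genes were lower. That setting keeps the shift of the whole table and called 7378 genes higher and 747 lower. Without a filter ODC1 (0.40), OAZ1 (0.22) and SAT1 (-0.32) did not pass, as without a variance trend (0.40, 0.22 and -0.32). In both settings 0 polyamine genes were lower. Limma without a filter corrects over more genes (24169) and also fits its variance trend with the low genes included. The part of each in the lost calls was not tested. With ribosomal protein genes left out ODC1 (0.21) and OAZ1 (0.03) did not pass. Genes of the neighbouring list called lower numbered 2 there and with protein-coding genes only, and 0 without a variance trend.

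With each library left out in turn, the log2 fold change ranged from 0.20 to 0.59 for ODC1, 0.15 to 0.29 for OAZ1 and -0.43 to -0.21 for SAT1, all with settings that lost the call; that of GLUD1 ranged from -0.37 to 0.15, the highest without shGLUD1 replicate 1. Polyamine genes called lower ranged from 0 to 1, with SAT1 the gene concerned, and the neighbouring list from 7 to 11 higher (7 without shNT replicate 1) and 0 to 1 lower. Leaving out 1 library leaves a lone sample assumed to vary like the others. Of 95 alternative values of the ratios 87 kept their sign. Removing length and GC trends, added after seeing the data and not possible for PAOX/SMOX because PAOX was below the filter, reversed ODC1/OAZ1 (-0.27) and SRM/ODC1 (0.39) and moved ODC1/AZIN1 (-0.48), AZIN1/OAZ1 (0.21), OAZ2/OAZ1 (0.27), SMS/ODC1 (1.06), SAT1/ODC1 (-0.33), SMOX/ODC1 (-0.21) and SAT1/AMD1 (-1.27) by more than the SD between replicates. ODC1/OAZ1 ranged from -0.01 to 0.37 and SRM/ODC1 from -0.46 to 0.11 with 1 library left out, and PAOX/SMOX, with a difference of 0.00, was -0.19 with a pseudocount of 0.1 TPM, -0.28 with none, and between -0.10 and 0.10 with 1 library left out. Where no construction is named the cause was not tested.

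The replicate numbers pair no libraries by the labels, and the deviations of same-numbered libraries correlated across genes at 0.0393. With the replicate block OAZ1 (0.22, adjusted p = 0.0788) lost its call and no other polyamine gene did.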

Other observations

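The genes whose levels over the 4 libraries were most like those of ODC1, by the root mean square difference in log2(TPM + 1), were PDE4DIP (0.0399), DDX54 (0.0659) and IGFBP3 (0.0701). For SAT1 they were CHMP5 (0.052), TOMM40 (0.0991) and GPR108 (0.1). IGFBP3, which encodes a binding protein of insulin-like growth factors, stood at 60.9 and 81.6 TPM in shGLUD1, against 58.5 and 54.8 TPM in shNT. CHMP5, a component of the ESCRT machinery of membrane remodelling, stood at 101.4 and 110.4 TPM in shGLUD1, against 125 and 134 TPM in shNT. With 4 libraries such likeness is a description of level and of the group difference alone.

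CDKN2A and CDKN2B, which lie on chromosome 9 near MTAP, were also listed at 0 TPM in all 4 libraries; they were looked up after the value of MTAP was seen. The listing of these 3 genes did not differ between the libraries labelled shGLUD1 and shNT. Among the other genes of polyamine supply, ARG1, SLC22A2, SLC47A1 and ATP13A4 were listed at 0 TPM in every library, whereas ARG2, the mitochondrial arginase, stood at 8.81 and 10.9 TPM in shGLUD1, against 4.81 and 5.24 TPM in shNT (log2 fold change 0.84, SE 0.21, limma adjusted p = 0.00475; rescaled 0.18, adjusted p = 0.37).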
